A study of Mus musculus with 23 samples.

Results

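Cholesterol is made, taken up and exported by a small set of genes, and the 29 genes described here cover that set. They comprise 18 enzymes of sterol synthesis, 4 genes of the SREBP2 control system, Npc1l1 and Stard4 for uptake and transfer, Soat1 and Soat2 for esterification, and the sterol exporters Abca1, Abcg5 and Abcg8. Members were matched to array probe sets by gene, old names through the Entrez number, and the probe set with the highest mean over 23 arrays was kept for each gene. Of the 29 members, 26 had a probe set of their own among 18820 genes with 1 value each, and Acat2, Soat1 and Soat2 were not analysed here.

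Scraped colon mucosa of male mice was measured, 1 Affymetrix array per mouse, with proximal and distal scrapings of a mouse pooled. The WT strain was 129S1/SvImJ and the KO strain 129S4/SvJae-Pparatm1Gonz/J, whose mice lack functional PPARα, so that the genotype and the substrain cannot be told apart. From an age of 7 to 9 weeks the mice received for 14 days a Westernized diet with 40 energy% fat and 30 µmol calcium per g, alone (control diet) or with 0.5 µmol heme per g (heme diet). The groups held 5 WT control mice (the array of 1 further mouse was left out by the study for its quality), 6 WT heme mice, 6 KO control mice and 6 KO heme mice, and all 4 groups shared the high fat and low calcium base diet. The study asked whether PPARα, a nuclear receptor for fatty acids, takes part in the colonic response to dietary heme. Here each gene has a linear signal intensity, which is 2 to the power of the deposited log2 value, and a difference between groups is a log2 fold change from limma with its standard error (SE). A gene was called when its Benjamini-Hochberg adjusted p over 18820 genes was under 0.01 and its mean signal was above 20 in at least 1 group compared.

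Cells make cholesterol from acetyl-CoA by way of mevalonate, farnesyl diphosphate, squalene and lanosterol. The transcription factor SREBP2, encoded by Srebf2, is held in the endoplasmic reticulum by INSIG proteins together with the sterol sensor SCAP while sterols are plentiful. When sterols fall, SREBP2 is carried to the Golgi, cleaved and released, and it switches on the genes of sterol synthesis from promoters in which sterol regulatory elements lie close to CCAAT and GC boxes. Sterol surplus acts the other way round through liver X receptors (LXR), whose oxysterol ligands raise transcription of the exporters ABCA1, ABCG5 and ABCG8. In the intestine NPC1L1 takes up cholesterol from the lumen, and the ABCG5 and ABCG8 heterodimer pumps sterols back into it.

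The DNA before the annotated starts of 6 members is shown. Idi1, Mvd, Cyp51, Abcg5 and Abcg8 were among the members with the largest differences between diets in their roles (Mvd in WT mice), and Hmgcs1 was added after its motif matches were seen. All stretches are from RefSeq on build GRCm38.p6, read 5′ to 3′ on the strand of the gene, and capitals mark the letters of CCAAT or its reverse complement and of the sterol regulatory element TCACNCCAC. Hmgcs1, HMG-CoA synthase, lies on the + strand, and the 250 bases at chr13:119690101-119690350 hold the sterol regulatory element and 3 CCAAT boxes.
Hmgcs1: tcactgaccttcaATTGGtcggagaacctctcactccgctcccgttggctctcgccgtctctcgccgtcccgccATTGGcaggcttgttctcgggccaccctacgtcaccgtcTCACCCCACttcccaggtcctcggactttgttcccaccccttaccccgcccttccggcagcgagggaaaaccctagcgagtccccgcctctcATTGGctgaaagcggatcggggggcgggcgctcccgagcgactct
Idi1, isopentenyl diphosphate isomerase, lies on the + strand, and chr13:8885356-8885605 holds 2 CCAAT boxes near the start.
Idi1: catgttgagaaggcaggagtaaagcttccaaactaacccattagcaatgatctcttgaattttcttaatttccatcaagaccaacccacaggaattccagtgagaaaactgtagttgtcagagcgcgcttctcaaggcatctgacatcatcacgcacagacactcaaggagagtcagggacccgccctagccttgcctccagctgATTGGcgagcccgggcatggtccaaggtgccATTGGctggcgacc
Mvd, mevalonate diphosphate decarboxylase, lies on the - strand, and chr8:122443423-122443672 holds 2 CCAAT boxes near the start. The far end of this stretch overlaps the annotated transcript 9330133O14Rik.
Mvd: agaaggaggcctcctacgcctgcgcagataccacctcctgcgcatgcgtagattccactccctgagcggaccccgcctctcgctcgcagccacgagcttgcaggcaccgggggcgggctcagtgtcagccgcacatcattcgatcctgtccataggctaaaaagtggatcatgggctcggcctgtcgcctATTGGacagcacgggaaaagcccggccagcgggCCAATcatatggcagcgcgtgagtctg
Cyp51, lanosterol demethylase, lies on the - strand, and chr5:4104698-4104947 holds 1 CCAAT box.
Cyp51: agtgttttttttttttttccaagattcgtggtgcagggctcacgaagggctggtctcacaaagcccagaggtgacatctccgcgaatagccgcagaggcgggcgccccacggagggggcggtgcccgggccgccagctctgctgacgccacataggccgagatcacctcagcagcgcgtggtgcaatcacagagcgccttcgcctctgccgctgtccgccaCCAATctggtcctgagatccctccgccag
Abcg5 and Abcg8 start back to back on opposite strands. The 109 bases between their starts, chr17:84683012-84683120 on the + strand of Abcg8, hold none of the letters searched and lie inside the annotated extent of a longer Abcg8 transcript.
Abcg5 and Abcg8: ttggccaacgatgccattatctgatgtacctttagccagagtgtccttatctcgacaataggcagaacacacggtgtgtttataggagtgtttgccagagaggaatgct

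Promoter windows were found for 22 of the 26 measured members, and 250 bases before each start were searched on both strands. All 14 synthesis enzymes with a window held CCAAT before at least 1 annotated start, against 37.5% of 27025 genes with a window. The GC box GGGCGG was found in 13 of the 14, against 35.4% of genes. The element TCACNCCAC was found in Hmgcs1 alone of the 22 members, against 1.22% of genes, and a DR4 type LXR element in none, against 0.0148%. These matches are a description of letters in a short window, and Ebp, Sc5d and Dhcr7, which were not called in either genotype, held CCAAT and GC boxes too.

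**Figure D1:**
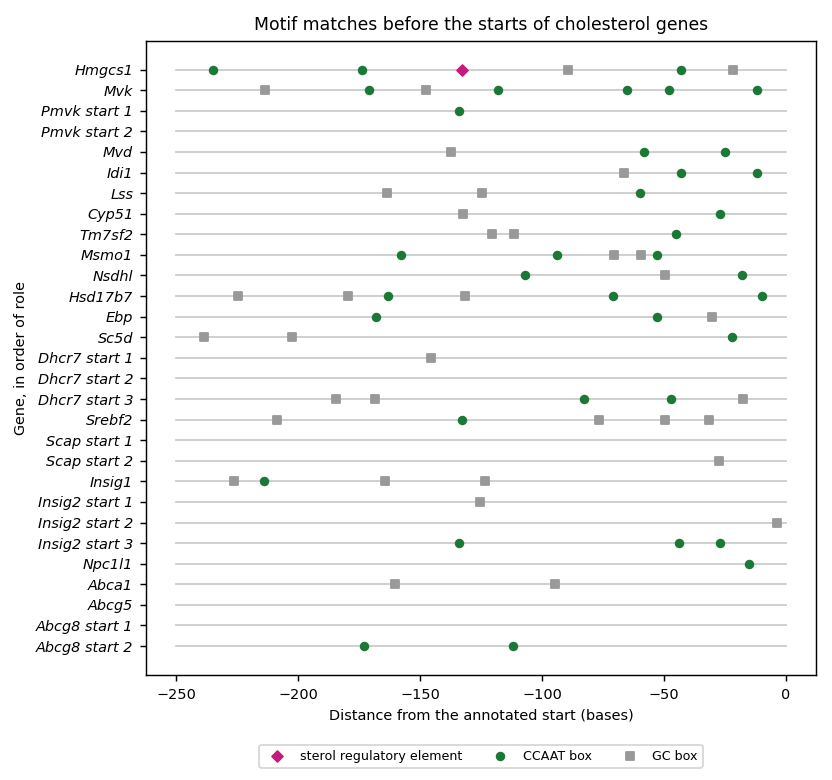
Position of motif matches in the 250 bases before each annotated start of the 22 measured members with a window, with the distance from the start in bases on the horizontal axis and 1 line per start. Circles mark CCAAT, squares GGGCGG and the diamond TCACNCCAC, and every synthesis enzyme shown has a circle on at least 1 of its lines.

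In WT mice the heme diet raised 15 of the 26 measured members and lowered 3. The genes that rose were 13 of the 17 measured synthesis enzymes together with Scap and Insig2, and the genes that fell were the exporters Abca1, Abcg5 and Abcg8. Over all genes 9.6% were called higher and 8.29% lower by the same rule. In KO mice the heme diet likewise raised 15 members, 14 of them synthesis enzymes, and lowered the same 3 exporters, against 9.23% and 9.2% of all genes. The median log2 fold change of the 17 synthesis enzymes was 0.75 for WT and 0.64 for KO mice, and that of all 18820 genes was -0.01 in both. Of the called members, 17 were called in both genotypes in the same direction, Scap was called in WT mice only and Fdft1 in KO mice only, and 7 were called in neither. In whole mucosa, fewer cells of a type and less RNA per cell cannot be told apart.

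**Figure D2:**
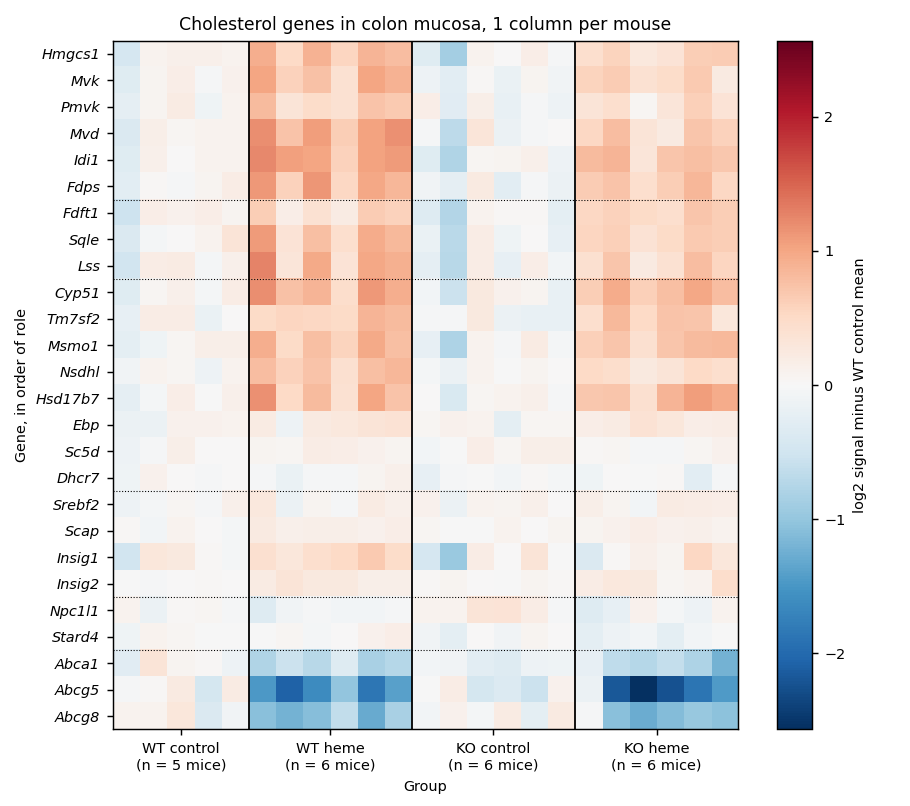
Log2 signal of the 26 measured members (rows, in order of role) in each of 23 mice (columns), as the difference from the mean of the 5 WT control mice. The heme-fed columns are red from Hmgcs1 to Hsd17b7 and blue for the 3 exporters, Ebp to Dhcr7 stay pale, and the leftmost KO heme mouse has pale exporters.

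The mevalonate branch rose as a whole. All 6 measured enzymes from acetyl-CoA to farnesyl diphosphate were called higher in both genotypes, with log2 fold changes of 0.57 to 1.00 for WT and 0.40 to 0.85 for KO mice. Idi1, which interconverts the isoprene building blocks, changed most. Its signal was 399, 539, 498, 524 and 526 in the WT control mice, while WT heme mice ranged from 741 to 1168 with a median of 1015. The KO control mice ranged from 288 to 543 (median 484) and the KO heme mice from 614 to 901 (median 825). Every heme-fed mouse was thus above every control mouse of its genotype. The log2 fold change of Idi1 was 1.00 (SE 0.14, adjusted p = 1.39e-05) in WT and 0.85 (SE 0.13, adjusted p = 4.7e-05) in KO mice, from limma.

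Mvd, the decarboxylase that yields isopentenyl diphosphate, had signals of 73.6, 105, 98.7, 101 and 101 in the WT control mice. WT heme mice ranged from 148 to 219 (median 198), KO control mice from 59.4 to 117 (median 93.0) and KO heme mice from 112 to 164 (median 141). The WT groups did not overlap, while in KO mice the lowest heme-fed mouse lay under the highest control mouse. Heme over control came to 0.98 on the log2 scale (SE 0.14, adjusted p = 2.47e-05) in WT and 0.63 (SE 0.14, adjusted p = 0.00116) in KO mice, from limma. The other members of this branch were Hmgcs1, which makes HMG-CoA (0.76 for WT, 0.64 for KO), the kinases Mvk (0.78 and 0.59) and Pmvk (0.57 and 0.40), and Fdps, which makes farnesyl diphosphate (0.87 and 0.73). The KO call of Pmvk was lost when any of 5 KO arrays was left out, with adjusted p of up to 0.0169.

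Farnesyl diphosphate is turned into squalene by FDFT1, squalene is oxidised by SQLE and closed to lanosterol by LSS. Sqle and Lss were called higher in both genotypes, and Fdft1 in KO mice only. The Lss signals were 214, 344, 351, 290 and 331 in the WT control mice and 373 to 729 (median 578) in WT heme mice. They were 185 to 343 (median 274) in KO control and 356 to 524 (median 421) in KO heme mice, so that diets did not overlap within a genotype. The Lss log2 fold change was 0.80 (SE 0.18, adjusted p = 0.00135) in WT and 0.66 (SE 0.17, adjusted p = 0.00438) in KO mice, from limma, and the KO call was lost without KO control replicate 2, KO heme replicate 2 or KO heme replicate 5 (adjusted p = 0.0144, 0.0117 and 0.0141).

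For Fdft1 the WT control signals were 855, 1376, 1330, 1391 and 1294, and WT heme mice ranged from 1391 to 1931 (median 1734). KO control mice ranged from 726 to 1312 (median 1148) and KO heme mice from 1662 to 2009 (median 1816). The WT groups met at their edges, whereas the KO groups lay well apart. The change came to 0.44 on the log2 scale (SE 0.14, adjusted p = 0.0208) in WT and 0.76 (SE 0.13, adjusted p = 1.56e-04) in KO mice, from limma. The difference of these heme effects, KO minus WT, was 0.32 with a 95% interval of -0.08 to 0.72 and was not called. Sqle had log2 fold changes of 0.74 for WT and 0.72 for KO mice.

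Downstream of lanosterol the enzymes differed in their values. Of 8 enzymes, the 5 that strip methyl groups from the sterol or reduce it early on (Cyp51, Tm7sf2, Msmo1, Nsdhl and Hsd17b7) were called higher in both genotypes, while Ebp, Sc5d and Dhcr7, which act on later intermediates, were called in neither. Cyp51 signals were 224, 286, 304, 268 and 316 in the WT control mice and 378 to 632 (median 520) in WT heme mice. In KO mice they were 189 to 332 (median 278) on the control diet and 424 to 555 (median 476) on the heme diet. No heme-fed mouse fell within the control range of its genotype. The log2 fold change of Cyp51 was 0.88 (SE 0.13, adjusted p = 3.39e-05) in WT and 0.85 (SE 0.13, adjusted p = 2.79e-05) in KO mice, from limma.

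Msmo1, the methylsterol monooxygenase, had WT control signals of 650, 718, 798, 855 and 858 and WT heme signals of 1086 to 1515 (median 1314). KO control mice ranged from 444 to 889 (median 748) and KO heme mice from 1030 to 1366 (median 1266). Here too the diets were apart in both genotypes, with log2 fold changes of 0.75 (SE 0.13) for WT and 0.82 (SE 0.13) for KO mice. Tm7sf2, a sterol reductase, had 0.63 and 0.64, Nsdhl, a sterol dehydrogenase, 0.69 and 0.42, and Hsd17b7, a sterol ketone reductase, 0.77 and 0.81 in WT and KO mice.

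The last enzymes gave much smaller values. For Ebp, a sterol isomerase, the log2 fold change was 0.21 in WT (95% interval 0.05 to 0.38, adjusted p = 0.0476 from limma) and 0.22 in KO mice (95% interval 0.06 to 0.37, adjusted p = 0.0332 from limma). For the desaturase Sc5d it was 0.11 and -0.05, with 95% intervals of 0.00 to 0.22 and -0.15 to 0.06. For Dhcr7, the reductase of the closing step, it was -0.01 in both genotypes, with intervals of -0.13 to 0.11 in WT and -0.12 to 0.11 in KO mice. Dhcr7 had a mean signal of 599 ± 33.2 (SD, n = 5) in WT control and 596 ± 40.2 (SD, n = 6) in WT heme mice, well above the signal limit of 20. The upper ends of these intervals lay below the log2 fold change of every called synthesis enzyme in the same genotype.

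**Figure D3:**
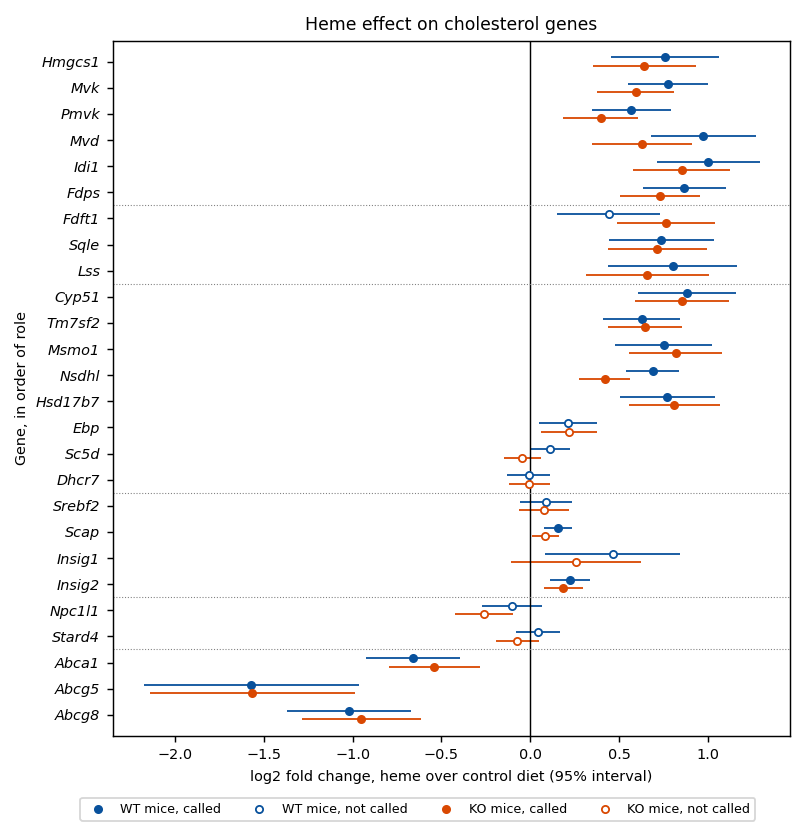
Difference between diets, heme over control, as log2 fold change for the 26 measured members (rows, in order of role) with WT in blue and KO in orange, and with 95% intervals from limma. Filled points were called. Values from Hmgcs1 to Hsd17b7 lie between 0.40 and 1.00, Ebp to Dhcr7 lie near 0, and the exporters reach -1.57.

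Groups that do not overlap were counted as well. In WT mice, 13 synthesis enzymes had every heme-fed mouse above every control mouse, and 8.21% of all genes did. In KO mice 13 did as well, against 7.3% of genes, and these included Ebp, which was not called, but neither Mvd nor Pmvk. The means over the 17 synthesis enzymes, as the difference from the WT control mean on the log2 scale, ranged from -0.28 to 0.11 in WT control and from 0.40 to 0.83 in WT heme mice, and from -0.42 to 0.14 in KO control and from 0.32 to 0.62 in KO heme mice.

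Transcripts of the control system gave small differences or none that passed the test. Srebf2 itself had signals of 980, 1037, 1110, 1049 and 1170 in the WT control mice and 965 to 1286 (median 1148) in WT heme mice. In KO mice it ranged from 967 to 1176 (median 1123) on the control and from 1014 to 1233 (median 1191) on the heme diet. The diets overlapped in both genotypes, and the log2 fold change was 0.09 (95% interval -0.06 to 0.24) in WT and 0.08 (95% interval -0.06 to 0.22) in KO mice. Scap, the sterol sensor, had signals of 628, 590, 655, 624 and 602 in WT control mice and 668 to 731 (median 686) in WT heme mice. KO control mice lay between 618 and 656 (median 630) and KO heme mice between 649 and 702 (median 670). Its log2 fold change was 0.16 in WT (SE 0.04, adjusted p = 0.00309 from limma) and 0.08 in KO mice (SE 0.04, adjusted p = 0.0905), and the WT call was lost without WT control replicate 2 or 5 (adjusted p = 0.014 and 0.0104) and when its 2 probe sets were averaged (adjusted p = 0.803).

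Insig2, a retention protein of the complex, had signals of 712, 698, 719, 725 and 719 in WT control and 790 to 898 (median 841) in WT heme mice. KO control mice ranged from 707 to 752 (median 729) and KO heme mice from 738 to 975 (median 834). The WT groups were apart and the KO groups touched. On the log2 scale the difference was 0.23 (SE 0.05, adjusted p = 0.00323 from limma) for WT mice and 0.19 (SE 0.05, adjusted p = 0.00901 from limma) in KO mice. The WT call was lost without WT control replicate 2 (adjusted p = 0.0104), and the KO call was lost in 19 of the 23 fits that each left out 1 array, with adjusted p of up to 0.0241. Insig1, an SREBP2 target that encodes the other retention protein, was looked at after its values were seen. Its signals were 528, 909, 884, 759 and 724 in WT control mice and 919 to 1183 (median 1021) in WT heme mice, so that these groups did not overlap. The spread over all 4 groups was wide, KO control mice ranging from 386 to 943 and KO heme mice from 575 to 1082, and the log2 fold change of 0.46 in WT (95% interval 0.08 to 0.85, adjusted p = 0.0643 from limma) and 0.26 in KO mice (95% interval -0.11 to 0.62) was not called.

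Uptake and transfer genes were not called. Npc1l1 was dim, with mean signals of 40.0 ± 2.60 (SD, n = 5) in WT control, 37.2 ± 2.76 (SD, n = 6) in WT heme, 45.1 ± 4.74 (SD, n = 6) in KO control and 37.7 ± 4.44 (SD, n = 6) in KO heme mice. Its log2 fold change was -0.10 in WT (95% interval -0.27 to 0.07) and -0.26 in KO mice (95% interval -0.42 to -0.10, adjusted p = 0.0142 from limma), and the KO value passed the threshold when any of 4 arrays was left out (adjusted p of 0.00627 to 0.00984). Stard4, a cytosolic sterol carrier, had 0.04 (95% interval -0.08 to 0.17) and -0.07 (95% interval -0.19 to 0.05).

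The exporters fell, and Abcg5 gave the largest difference of all 26 members. Abcg5 signals were 152, 158, 182, 113 and 180 in the WT control mice and 36.6 to 77.0 (median 53.1) in WT heme mice. KO control mice ranged from 105 to 175 (median 138) and KO heme mice from 26.1 to 139 (median 38.2). The WT groups were far apart. In KO mice they overlapped through KO heme replicate 1 alone, whose signal of 139 lay within the control range while the other 5 mice lay between 26.1 and 56.6. The log2 fold change was -1.57 (SE 0.29, adjusted p = 3.04e-04) in WT and -1.56 (SE 0.28, adjusted p = 1.87e-04) in KO mice, from limma, which is 2.97 and 2.96 times lower.

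Abcg8, the partner subunit, had signals of 57.0, 56.9, 65.7, 41.4 and 50.7 in WT control and 21.9 to 34.8 (median 25.4) in WT heme mice. In KO mice it ranged from 45.4 to 62.9 (median 55.2) on the control diet and from 22.3 to 52.9 (median 25.6) on the heme diet. The highest KO heme value was again that of replicate 1, and the other 5 mice lay at 22.3 to 27.3. The log2 fold change was -1.02 (SE 0.17, adjusted p = 9.32e-05) in WT and -0.95 (SE 0.16, adjusted p = 1.12e-04) in KO mice, from limma. Heme-fed signals of Abcg8 were close to the signal limit of 20.

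Abca1, which loads cholesterol onto apolipoproteins, fell by 0.66 on the log2 scale in WT (SE 0.13, adjusted p = 4.85e-04) and by 0.54 in KO mice (SE 0.12, adjusted p = 0.00181), from limma. Its mean signal went from 213 ± 34.8 (SD, n = 5) to 134 ± 18.3 (SD, n = 6) for WT mice and from 188 ± 14.6 (SD, n = 6) to 132 ± 29.3 (SD, n = 6) in KO mice. All 3 exporters had WT groups that did not overlap, as did 6.91% of all genes in the same direction, and none had apart groups in KO mice (6.62% of genes). Without KO heme replicate 1 the KO log2 fold changes were -1.88 for Abcg5, -1.13 for Abcg8 and -0.64 for Abca1, with adjusted p of 3.07e-07, 3.38e-07 and 1.78e-04 from limma. In that mouse the synthesis enzymes lay within the range of the other heme-fed KO mice, with a mean log2 difference of 0.46 from WT control. It also had the highest smooth muscle mean (-0.82) and G2 and M phase mean (0.91) of its group on the same scale, and their part in its exporter signals was not tested. This mouse was singled out after its values were seen.

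**Figure D4:**
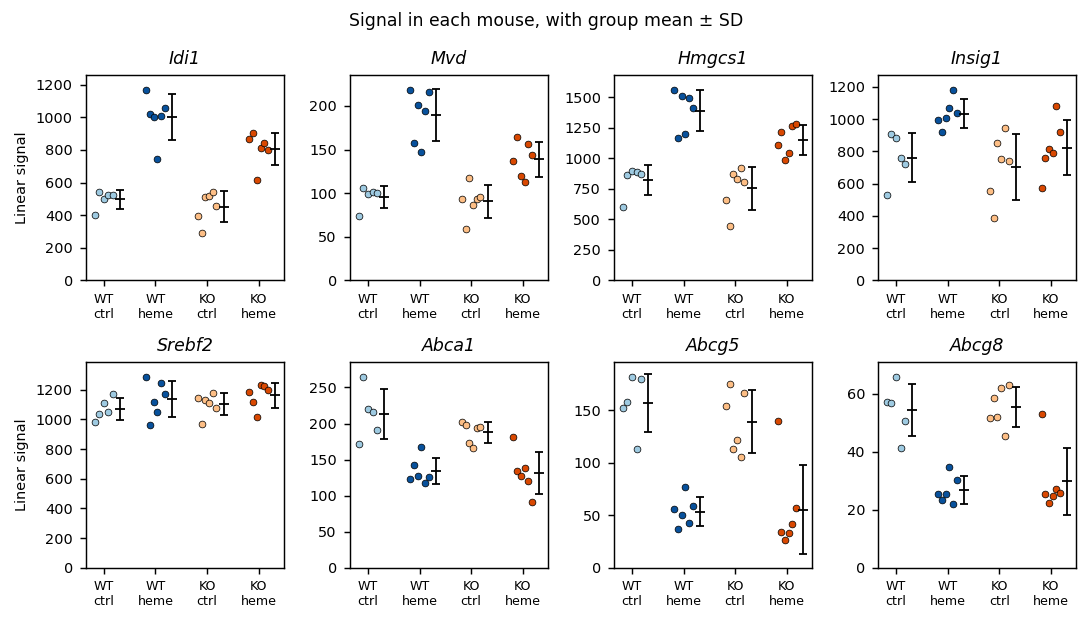
Linear signal of 8 members in every mouse, with the group mean ± SD to the right of the points and a vertical axis from 0. Idi1, Mvd and Hmgcs1 are higher in heme-fed mice of both genotypes, Srebf2 overlaps between diets, and Abca1, Abcg5 and Abcg8 are lower except in 1 heme-fed KO mouse.

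**Figure D5:**
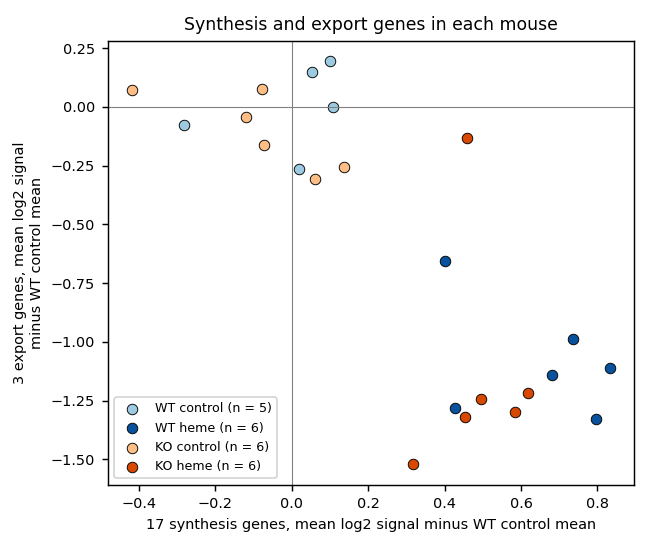
Each point is 1 mouse, with the mean over 17 synthesis enzymes on the horizontal axis and the mean over 3 exporters on the vertical axis, both as log2 difference from the WT control mean. All 12 heme-fed mice lie to the right of 0.3 and all 11 control mice to the left of 0.2, and 1 KO heme mouse at -0.13 on the vertical axis lies among the controls in height.

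The synthesis enzymes also varied together between mice of a group. After each group mean was taken off, the 14 enzymes that rose had a mean pairwise correlation of 0.709 over 23 mice, against 0.00223 over 14391 genes with a group mean above 20. All 17 measured synthesis enzymes had 0.555, and the 3 exporters had 0.583 among themselves. The mice share 1 array plate and 1 normalisation, so that this is a description. Each of the 14 correlated at 0.351 (Tm7sf2) to 0.958 (Lss) with the mean of the others. Srebf2 correlated with that mean at 0.822 although its own heme difference was small, and Insig1 at 0.676 and Stard4 at 0.517. Lower values were seen for Sc5d (0.453), Dhcr7 (0.225) and Ebp (0.166), and the exporters lay at -0.209 to -0.11. Without WT control replicate 1 and KO control replicate 2, which lay farthest from their groups, the mean pairwise value was 0.652, Srebf2 kept 0.772, and Insig1, Stard4 and Sc5d dropped to 0.367, 0.194 and 0.236, so that these relations rest largely on those mice.

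Between genotypes no member passed the test on either diet. On the control diet no member was called between KO and WT mice by limma, against 0.0531% of all genes, and none had an unadjusted p under 0.05, against 5.74%. The log2 differences, KO minus WT, ranged from -0.20 for Fdft1 to 0.17 for Npc1l1. On the heme diet limma called none either, against 0.234% of all genes. There 7 of 26 members had an unadjusted p under 0.05 and all 7 were lower in KO mice, as were 6.74% of all genes. They were Mvk, Pmvk, Mvd, Idi1, Fdps, Nsdhl and Stard4.

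Nsdhl was nearest to a call. Its mean signal was 1151 ± 125 (SD, n = 6) in heme-fed WT and 946 ± 66.2 (SD, n = 6) in heme-fed KO mice, while control mice had 711 ± 51.9 (SD, n = 5) and 708 ± 41.9 (SD, n = 6). The KO minus WT difference on heme was -0.28 (95% interval -0.42 to -0.14, adjusted p = 0.0587 from limma), and without WT heme replicate 4 it was -0.33 with adjusted p = 0.00721. Mvd followed with -0.44 (95% interval -0.73 to -0.16, adjusted p = 0.145 from limma). Of the 17 synthesis enzymes, 14 had a lower mean in heme-fed KO than in heme-fed WT mice, with a median difference of -0.19. The 11 measured genes of the G2 and M phase of the cell cycle were lower in heme-fed KO mice as well, with a median of -0.32. Of these genes 8 had an unadjusted p under 0.05 from limma, and their part in the difference was not tested. On the control diet 15 of the 17 enzymes and all 11 of those genes also had a lower mean in KO mice. Their medians were -0.09 and -0.17, and none had an unadjusted p under 0.05 from limma. Since the enzymes varied together between mice, these counts are not counts of separate results.

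The heme effect itself was compared between genotypes as KO minus WT. No member was called by limma, against 0.0106% of all genes, and Nsdhl (-0.27, 95% interval -0.48 to -0.07, adjusted p = 0.62) and Sc5d (-0.16, 95% interval -0.31 to -0.01, adjusted p = 0.72) had an unadjusted p under 0.05, which is 2 of 26 members against 6.75% of all genes. The intervals were wide for the exporters, at -0.83 to 0.84 for Abcg5 and -0.42 to 0.55 for Abcg8, so that a difference between genotypes of that size was not detectable with these mice. For the synthesis enzymes the differences ran from -0.35 for Mvd to 0.32 for Fdft1. Several of their 95% intervals were wide too, at -0.64 to 0.36 for Lss, -0.75 to 0.06 for Mvd and -0.43 to 0.38 for Sqle. Others were narrower, as for Dhcr7 at -0.17 to 0.17. Equal heme effects in the 2 genotypes were thus not shown for these enzymes. The comparisons of genotypes use the same mice as the comparisons of diets.

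Other genes of sterol handling gave no common direction. Of 32 measured genes in lists around the pathway, 5 were called higher and 5 lower in WT mice, and 5 higher and 7 lower in KO mice. Over all genes the shares given above were 9.6% higher and 8.29% lower in WT and 9.23% and 9.2% in KO mice. Among the regulators of SREBP processing, Mbtps1, the site-1 protease that cleaves SREBP, was lower in both genotypes (log2 fold change -0.22 for WT, -0.27 for KO), and Srebf1, the gene of the sister factor, was not called (0.06 and -0.16) and is named for its relation to Srebf2. Of 8 genes that use isoprenoids for other products, Nus1, for dolichol synthesis, was higher in both genotypes (0.36 and 0.37). Pdss2, for coenzyme Q, was called in KO mice (0.12 and 0.20) and Fntb, a farnesyltransferase subunit, in WT mice (0.22 and 0.16).

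Of 7 measured genes around LXR and oxysterols, 1 was called higher and 2 lower in WT mice. In KO mice 0 were called higher and 3 lower, and 4 of the 7 were not called in each genotype. Mylip, an LXR target that marks lipoprotein receptors for degradation, fell from a mean signal of 444 to 248 for WT mice and from 408 to 185 for KO mice, with log2 fold changes of -0.86 and -1.23. Cyp27a1, which makes an oxysterol, fell by 0.90 in WT and by 0.86 in KO mice on the log2 scale. Abcg1, another LXR driven exporter, had -0.23 in WT and was called in KO mice (-0.48). Nr1h3, which encodes LXRα and is named after its values were seen, was the gene called higher, at 0.33 in WT mice. It had 0.25 in KO mice, where it was not called.

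Lysosomal and membrane genes were mixed. Lipa, the lysosomal acid lipase, rose in both genotypes (0.28 for WT, 0.39 for KO), while Gramd1b, a carrier of sterol from the plasma membrane, fell (-0.40 and -0.53) and Npc2, a lysosomal sterol carrier, was called lower in KO mice (-0.16 and -0.25). Scarb1, the receptor for high density lipoprotein, rose in both (0.60 and 0.35), Vldlr was called in KO mice (0.39 and 0.53), and Cav1, the caveolin of endothelium and smooth muscle as well as epithelium, fell in both (-0.96 and -0.71).

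Marker transcripts of some cell types in the scrapings differed between the diets. Colon epithelial markers were bright in all groups, with a summed signal of 9 markers between 47880 and 54320. Of these 9, 2 were called higher and 2 lower in heme-fed WT mice, and 2 higher and 3 lower in heme-fed KO mice. Lct, a defining gene of the small intestine, stayed at 22.7 to 25.1. Of 13 smooth muscle markers, 11 fell in heme-fed WT mice and 1 fell in heme-fed KO mice, with a summed signal of 5874 to 16880 in WT control, 3458 to 5298 in WT heme, 3233 to 8232 in KO control and 3145 to 5395 in KO heme mice, and none was at 0. Of 9 small intestinal enterocyte markers, 3 were higher and 1 lower in heme-fed WT mice, and 2 higher and 1 lower in heme-fed KO mice. Their summed signal was 4926 to 5921 in WT control and 6848 to 8049 in WT heme mice. It was 4695 to 6064 in KO control and 4697 to 8483 in KO heme mice. No marker of fibroblasts, T and B cells or endothelium was called for heme. At an unadjusted p under 0.05 from limma, 3 of 8 fibroblast markers were lower in each genotype. Fibroblast log2 fold changes reached -0.92 in WT and -0.73 in KO mice. At that level stood 7002 of 18820 genes in WT and 7139 in KO mice, in either direction. Of 6 macrophage markers 1 was called lower in each genotype and 1 higher in KO mice, and 1 of 5 adipocyte markers was called higher in each. With the smooth muscle level as a covariate, a limma fit called 7 members in the WT and 15 in the KO comparison of diets. Calls fell over all genes too, with 1256 genes called in WT mice in that fit against 3367 without the covariate. The count over all genes in KO mice in that fit is not given here. The 7 in WT mice were Mvk, Mvd, Idi1, Fdps, Cyp51, Tm7sf2 and Nsdhl. The synthesis enzymes that lost their WT call had log2 fold changes of 0.54 (Hmgcs1), 0.53 (Pmvk), 0.56 (Sqle), 0.75 (Lss), 0.52 (Msmo1) and 0.61 (Hsd17b7) in that fit, with adjusted p of 0.0188 to 0.0633. In KO mice 14 of the 15 had been called without the covariate. Abca1 (-0.46), Lss (0.64), Pmvk (0.38) and Insig2 (0.17) lost their KO call, with adjusted p of 0.0115, 0.0136, 0.0155 and 0.0297, and Npc1l1 gained one (-0.32, adjusted p = 0.00614). The WT log2 fold changes of the exporters with the covariate were -1.32 for Abcg5, -0.84 for Abcg8 and -0.47 for Abca1, with adjusted p of 0.0295, 0.0172 and 0.0667. When WT control replicates 1 and 2, which had the most smooth muscle signal, were left out, 14 members were called in WT mice. Over all genes 1826 were called there, and Abcg5, Abcg8 and Abca1 had -1.57, -0.96 and -0.65. All 11 measured genes of the G2 and M phase rose in both genotypes, with a median log2 fold change of 0.90 for WT and 0.73 for KO mice. Within groups, the mean of the synthesis enzymes that rose correlated at 0.271 with the mean of those genes and at -0.203 with smooth muscle over 23 mice, and the part of proliferation in the result was not tested.

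The targeted gene was checked against the labels. Ppara signals were 444 to 560 in WT control and 240 to 378 in KO control mice, and 344 to 475 in WT heme and 163 to 238 in KO heme mice, so that genotypes were apart on each diet, while the place of the probes relative to the disrupted part is not known here. Arrays correlated with the others of their group at 0.991 to 0.996 on average.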

How the data were processed

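Total RNA of scraped colon mucosa (100 ng per mouse) was hybridised to Affymetrix Mouse Gene 1.1 ST arrays on 1 plate. The deposited log2 values were computed by the authors with Robust Multi-array Average (background correction, quantile normalisation and summarisation per probe set) and used as given; no version was found in the sources used here. The methods name reorganised probe sets, whereas the rows are Affymetrix transcript clusters, so probes behind a gene can differ from those of the study. Of 35556 probe sets, 21218 had 1 gene symbol, 1881 several and 12457 none; 21185 matched RefSeq by Entrez number, leaving 18820 genes. Idi1 and Scap had a further probe set, and Fdft1 shared others with Ctsb. The members, roles and gene lists were chosen with earlier results of these data known.

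Groups came from the labels. A 4-group model was fitted with limma 3.58.1 (R 4.3.3) and p-values were adjusted by the Benjamini-Hochberg method over all genes, with the study's thresholds of 0.01 and a signal of 20. Tests were checked on simulated data. For the 2 called members of each role with the largest heme effect in WT or KO mice, and for Srebf2, the values of all WT control mice and the lowest, median and highest of the groups of 6 were given; up to 3 called genes were named by size from each further list, and Nr1h3 and Srebf1 in addition. Alternatives were thresholds, filters, centring, variance models, array weights, the methods' two-way model, a replicate block, averaged probe sets, a smooth muscle covariate and leaving out each array; leaving out the 2 WT control arrays rich in smooth muscle was added after seeing the data. Arrays have no read depth, so their number and the signal over background limit precision. Each mouse was a separate animal. Tools were Python 3.11.15, pandas 2.3.3 and matplotlib 3.10.9.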

Additional observations from a re-analysis of the deposited data

Results flagged for a closer look

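Each of the 26 measured members was tested for an outlying mouse in each group by Dixon's test on log2 signal, and 11 of 104 combinations were flagged. Chance flags about 1 in 20 separate tests. Many members varied together between mice, so the count cannot be set against that rate. WT control replicate 1 had the lowest signal of its group for 15 of the 17 synthesis enzymes and lay outside by this test for 4 of them, with signals of 602 for Hmgcs1 (others 866 to 892), 73.6 for Mvd (others 98.7 to 105), 399 for Idi1 (others 498 to 539) and 855 for Fdft1 (others 1294 to 1391). KO control replicate 2 was the lowest of its group for 12 of the 17 and lay outside for Hsd17b7, at 192 (others 246 to 273). Of the heme-fed mice, WT replicate 4 was low for Idi1 at 741 (others 1000 to 1168), and KO replicate 3 was low for Idi1 at 614 (others 800 to 901). Ebp was lowest in WT heme replicate 2 at 509 (others 638 to 712) and in KO control replicate 4 at 468 (others 570 to 595). Npc1l1 was lowest in WT heme replicate 1 at 31.8 (others 37.3 to 39.1).

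Abcg8 was highest in KO heme replicate 1 at 52.9 (others 22.3 to 27.3). In the same mouse Abcg5 was 139 and Abca1 181, where the other 5 mice reached 56.6 and 138. That mouse also had the highest mean of smooth muscle markers (-0.82) and of G2 and M phase genes (0.91) among the heme-fed KO mice, as the log2 difference from WT control; their part in its exporter signals was not tested.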

How the results depend on the processing

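Members called for heme were 18 in WT and 18 in KO mice. In WT mice the smooth muscle covariate moved the count to 7 (all higher), while 1256 in place of 3367 genes were called overall (1826 without the 2 WT control arrays rich in smooth muscle, an alternative chosen after seeing the data); the other alternatives gave 14 to 20. In KO mice they gave 15 to 20. Leaving out 1 array gave 16 to 19 members in WT and 15 to 18 in KO mice. Between genotypes it gave 0 on the control diet, 0 to 1 on the heme diet (Nsdhl without WT heme replicate 4) and 0 for the difference of heme effects, where every other alternative gave 0. At an adjusted p under 0.05, 5092 genes were called for heme in WT and 5235 in place of 3469 in KO mice, and 148 in place of 44 between genotypes on heme, where array weights gave 70 and a fit of the groups compared alone 17. For the difference of heme effects 2 genes were called, and 0 on linear signal; a fit of the groups compared alone was not run there, since all 4 groups enter. Of 4784 values of single members under an alternative, 56 lost a call, 14 gained one and none of the called values changed sign. Ebp and Fdft1 in WT and Ebp and Npc1l1 in KO mice passed at 0.05.

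The replicate numbers are part of the sample names, and whether they pair the mice is not known. Deviations of same-numbered mice correlated at -0.317 to 0.34 (mean 0.0484, over 0.1 in 14 of 33 pairs). Those of mice with other numbers correlated at -0.521 to 0.453 (mean -0.00947, over 0.1 in 43 of 165 pairs). With the replicate block the members called were 18 in WT and 18 in KO mice, where Insig2 lost and Npc1l1 gained a call, and 0 in the comparisons of genotypes.

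The probe sets of a member agreed in direction for Idi1 (log2 difference 1.00 in WT and 0.90 in KO mice for the further set), while the further Scap set was dim at a signal of 22.6. Of the sets shared by Fdft1 and Ctsb, 1 gave 0.40 and 0.64 and the other -0.12 and -0.18. Low signals limit what can be resolved, as for Abcg8 in heme-fed mice (means of 26.8 in WT and 29.8 in KO mice). Npc1l1 was dim too, with group means of 37.2 to 45.1.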
